A study of Mus musculus with 25 samples.

Results

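Tgfbr1, Tgfbr2, Tgfbr3, Acvr1, Acvr1b, Acvr2a, Acvr2b, Smad2, Smad3 and Smad7, the receptors and intracellular transducers through which cells read TGF-β and activin, were followed in 2 mouse islet cell lines. They were taken by symbol from the RNA-seq tables, where they made up 10 of 24439 genes, and by the deposited nearest-gene label from the ATAC-seq table, where they were the nearest gene of 89 of 65053 consensus peaks. alpha TC1 clone 6 (αTC1) and beta-TC-6 (βTC6) are clonal, immortalised mouse tumour lines that stand for glucagon-secreting α cells and insulin-secreting β cells. Each line was profiled untreated by RNA-seq (3 libraries a line) and by ATAC-seq, in which a transposase marks open chromatin (5 libraries a line, 100000 cells each). A further 9 ATAC-seq libraries held counted mixtures of both lines, from 10% to 90% αTC1 cells in steps of 10%. The lines were kept in different media, with different serum shares and glucose supply, so medium and line cannot be told apart, and each line is 1 clone.

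TGF-β family ligands bind a type II receptor kinase, which phosphorylates a type I receptor kinase, which in turn phosphorylates receptor Smads that move to the nucleus with Smad4. TGF-β itself uses TGFBR2 with TGFBR1, activins use ACVR2A or ACVR2B with ACVR1B, and both routes end on SMAD2 and SMAD3. SMAD7 is induced by the pathway and blocks the type I receptors, and in the pancreas these ligands are known for their part in endocrine differentiation, β-cell mass and hormone secretion.

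Marker genes of both lines and of other islet cells were read first. Gcg stood at 12113 to 14406 FPKM (read fragments scaled to transcript length and library size) in αTC1 and at 172 to 267 in βTC6, and summed FPKM of the 7 rows of α-cell markers was 13274 to 15360 and 738 to 1862. Of these rows Ttr alone was not lower in βTC6 (mean 835 FPKM in αTC1 and 1116 in βTC6, edgeR adjusted p = 0.215). Summed FPKM of 7 β-cell markers (Ins1, Ins2, Pdx1, Mafa, Nkx6-1, Slc2a2, Iapp) was 14.5 to 15.6 in αTC1 and 34101 to 51154 in βTC6. The δ-cell hormone gene Sst was at 0 FPKM in every αTC1 library and averaged 256 FPKM in βTC6, whereas the δ-cell marker Rbp4 averaged 1397 and 210 FPKM, Hhex was under 1 FPKM in both, and the 3 summed to 1240 to 1679 FPKM in αTC1 and 423 to 508 in βTC6. The pancreatic polypeptide gene Ppy was at 0.09 to 0.1 FPKM in αTC1 and at 50.81, 3.7 and 23.37 FPKM in the βTC6 libraries. For mesenchymal cells, which also signal through TGF-β, summed FPKM of 6 markers was 2.50 to 3.52 in αTC1 and 0.34 to 0.54 in βTC6, 4 of the 6 were under 1 FPKM in αTC1 and all 6 in βTC6, and Col3a1 was at 0 in every library. Col1a2 (1.26, 1.35 and 2.12 FPKM in αTC1, 0.08 to 0.23 in βTC6) and Pdgfra (1.04 to 1.17 and 0.13 to 0.28) were called lower in βTC6, as Smad3 was, and Col1a2 was highest in αTC1 replicate 3, as Smad3 was. The part of these markers in the results below was not tested. Summed expected counts ran from 21954031 to 26033482 per RNA-seq library, and 4397851 to 10374903 reads fell in peaks per pure ATAC-seq library. Libraries of one line differed from each other by 2.06 or more in chi-square per feature, above the 1 that counting noise alone gives, so none was merged with another. αTC1 replicate 3 stood apart in RNA-seq (chi-square per gene 29.0 and 30.1 against its mates, which differed from each other by 2.41), the 3 βTC6 libraries differed from each other by 18.9 to 40.9, and replicates 4 and 5 of both lines in ATAC-seq (9.26 to 10.5 in αTC1 and 4.38 to 8.17 in βTC6 against replicates 1 to 3), the 2 βTC6 libraries differing from each other by 8.36. The labels do not say that libraries came from separate cultures, so p-values measure the spread between these libraries, which may be technical.

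The first question was whether both lines carry the same receptor and Smad transcripts. In both lines Smad2 was the most abundant of the 10 mRNAs and Tgfbr2 was close to nil, whereas Smad3 and the type II receptor Acvr2b were lower in βTC6 than in αTC1. Of the 10 genes, 9 passed the filter of at least 1 FPKM in all libraries of either line and were tested (edgeR quasi-likelihood test, Benjamini-Hochberg over 12195 genes). Smad3 passed it through αTC1 alone. At FDR under 5% Tgfbr1 was higher in βTC6, Acvr2b, Acvr1b, Smad3 and Smad2 were lower, and Acvr1, Acvr2a, Tgfbr3 and Smad7 did not pass. Over all tested genes 38.7% were higher in βTC6 and 36.0% lower at this threshold. With an absolute log2 fold change over 2 as well, Smad3 alone was called lower and no member higher, where 4.08% of all genes were called lower and 10.2% higher. Since the filter favoured the Smad3 difference, nothing is read from this share. The median log2 fold change was -0.12 over the 9 tested members and 0.01 over all tested genes. In bulk libraries fewer cells with a transcript and less of it per cell cannot be told apart.

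**Figure D1:**
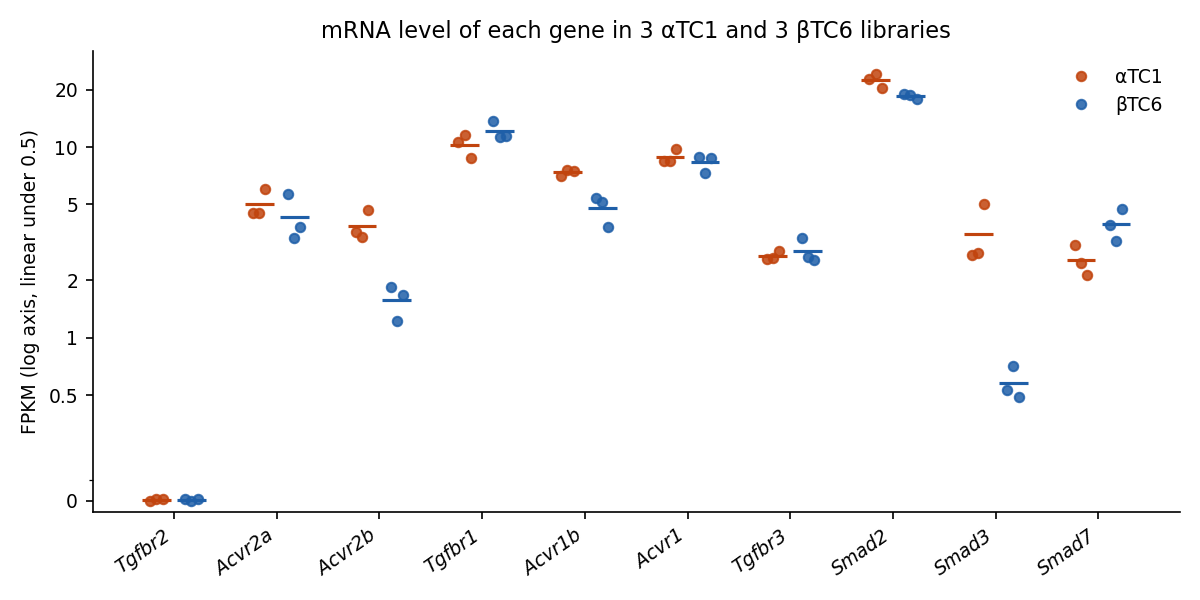
FPKM of each gene (vertical axis, logarithmic and linear under 0.5) in the 3 αTC1 (orange) and 3 βTC6 (blue) libraries, with bars at the means. Smad3 (2.72 to 5.02 against 0.49 to 0.71) and Acvr2b (3.36 to 4.65 against 1.22 to 1.84) separate the lines, and Tgfbr2 lies at 0 to 0.01 in both.

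Tgfbr2 (ENSMUSG00000032440, mm9 chr9:115993415-116084383, minus strand) encodes the only type II receptor that binds TGF-β with high affinity. Its expected counts were 0, 2.05 and 2.07 in the αTC1 libraries and 2.91, 1.0 and 1.94 in the βTC6 libraries, at most 0.01 FPKM. No library exceeded 3 counts, so the transcript was at or under the limit of detection in both lines and no fold is given.

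The activin type II receptors were both present. Acvr2a (ENSMUSG00000052155, chr2:48669629-48758789, plus strand) measured 4.49, 4.5 and 6.02 FPKM in αTC1 and 5.64, 3.35 and 3.82 FPKM in βTC6, overlapping ranges with a log2 fold change (βTC6 over αTC1, here and below) of -0.12 ± 0.17 (SE, n = 3 per line, edgeR adjusted p = 0.551), and 0.03 without αTC1 replicate 3. Acvr2b (ENSMUSG00000061393, chr9:119311562-119342619, plus strand) measured 3.59, 3.36 and 4.65 FPKM in αTC1 and 1.84, 1.22 and 1.67 FPKM in βTC6. Every αTC1 value lay above every βTC6 value, and Acvr2b fell by 1.24 ± 0.22 on the log2 scale (edgeR adjusted p = 0.000728). The balance between these alternative activin receptors did not overlap between the lines, since the Acvr2a to Acvr2b FPKM ratio was 1.25, 1.34 and 1.29 in αTC1 and 3.07, 2.75 and 2.29 in βTC6. The exact two-sided permutation test gave p = 0.10 for this ratio, the smallest p that 3 against 3 libraries allow.

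Among the type I receptors, the TGF-β receptor and the activin receptor moved in opposite directions. Tgfbr1 (ALK5; ENSMUSG00000007613, chr4:47366094-47427803, plus strand) measured 10.59, 11.50 and 8.79 FPKM in αTC1 and 13.74, 11.28 and 11.49 FPKM in βTC6. The FPKM ranges overlapped, while the test on expected counts gave 0.48 ± 0.12 (edgeR adjusted p = 0.00436). Acvr1b (ALK4; ENSMUSG00000000532, chr15:101004556-101043032, plus strand), the activin type I receptor, measured 7.09, 7.58 and 7.47 FPKM in αTC1 and 5.39, 5.12 and 3.79 FPKM in βTC6. These ranges did not overlap, and the log2 change was -0.57 ± 0.14 (edgeR adjusted p = 0.00495). The Tgfbr1 to Acvr1b ratio of FPKM was 1.40 ± 0.19 (SD, n = 3) in αTC1 and 2.59 ± 0.42 in βTC6, with no overlap (exact permutation p = 0.10). Acvr1 (ALK2; ENSMUSG00000026836, chr2:58241055-58419568, minus strand), which mainly serves bone morphogenetic proteins (BMPs), measured 8.41, 8.46 and 9.74 FPKM in αTC1 and 8.86, 7.35 and 8.79 FPKM in βTC6, at -0.03 ± 0.11 (edgeR adjusted p = 0.788). With library sizes scaled to the ERCC spike-ins, RNAs added in known amounts, the changes of Tgfbr1 (0.47, edgeR adjusted p = 0.434) and Acvr1b (-0.55, edgeR adjusted p = 0.374) kept their size but did not pass.

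Tgfbr3 (betaglycan; ENSMUSG00000029287, chr5:107535589-107718648, minus strand), a co-receptor that presents TGF-β and lets inhibin compete with activin, measured 2.58, 2.62 and 2.85 FPKM in αTC1 and 3.33, 2.64 and 2.57 FPKM in βTC6. The ranges overlapped and the log2 change of 0.26 ± 0.13 did not pass (edgeR adjusted p = 0.0993), though it did without αTC1 replicate 3 (0.36, edgeR adjusted p = 0.0238).

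Of the receptor Smads, Smad3 separated the lines most. Smad3 (ENSMUSG00000032402, chr9:63494574-63605801, minus strand) measured 2.72, 2.78 and 5.02 FPKM in αTC1 and 0.53, 0.71 and 0.49 FPKM in βTC6. All αTC1 libraries lay above all βTC6 libraries, replicate 3 of αTC1 highest, and mean FPKM was 6.08-fold higher in αTC1. The log2 change was -2.77 ± 0.26 (edgeR adjusted p = 1.06e-05), and -2.44 without αTC1 replicate 3. As the gene passed the FPKM filter only through αTC1, where it is high, the filter favoured this difference, and with no filter the log2 change was -2.82 (edgeR adjusted p = 4.20e-07). Smad2 (ENSMUSG00000024563, chr18:76401234-76465385, plus strand) measured 22.73, 24.09 and 20.44 FPKM in αTC1 and 19.01, 18.65 and 17.93 FPKM in βTC6. The ranges were apart but close, at -0.20 ± 0.08 (edgeR adjusted p = 0.0440). The change no longer passed without αTC1 replicate 1 or 2 (edgeR adjusted p = 0.171 and 0.133) or βTC6 replicate 1 or 3 (0.0871 and 0.0900), and with DESeq2 (adjusted p = 0.0689). Smad2 thus exceeded Smad3 by FPKM ratios of 8.36, 8.67 and 4.07 in αTC1 and 35.9, 26.3 and 36.6 in βTC6, with no overlap (exact permutation p = 0.10).

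Smad7 (ENSMUSG00000025880, chr18:75527183-75555589, plus strand), the inhibitory Smad, measured 3.07, 2.45 and 2.14 FPKM in αTC1 and 3.89, 3.23 and 4.74 FPKM in βTC6. Although the ranges did not overlap, 0.50 ± 0.21 missed the threshold (edgeR adjusted p = 0.0513). It passed without βTC6 replicate 2 (0.69, edgeR adjusted p = 0.00584) and with DESeq2 (adjusted p = 0.0382). It did not pass on leaving out any other library, and was smallest without βTC6 replicate 3 (0.31, edgeR adjusted p = 0.187). Nor did it pass with ERCC scaling (0.43, edgeR adjusted p = 0.546). The Smad2 to Smad7 ratio was 8.93 ± 1.33 (SD, n = 3) in αTC1 and 4.81 ± 0.998 in βTC6, again with no overlap. It was the last of 4 such ratios computed, each with an exact permutation p of 0.10 and the same value after Benjamini-Hochberg adjustment.

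In order of mean FPKM the αTC1 levels ran Smad2 (22.4), Tgfbr1 (10.3), Acvr1 (8.87), Acvr1b (7.38), Acvr2a (5.00), Acvr2b (3.87), Smad3 (3.51), Tgfbr3 (2.68), Smad7 (2.55) and Tgfbr2 (0.00667). Neighbours whose library ranges overlapped were Tgfbr1 with Acvr1, and each pair in turn from Acvr2a down to Smad7. In βTC6 the order was Smad2 (18.5), Tgfbr1 (12.2), Acvr1 (8.33), Acvr1b (4.77), Acvr2a (4.27), Smad7 (3.95), Tgfbr3 (2.85), Acvr2b (1.58), Smad3 (0.577) and Tgfbr2 (0.00667), where only the pairs from Acvr1b down to Tgfbr3 overlapped. Smad7 rose by 3 places between these orders and Smad3 and Acvr2b each fell by 2.

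The genes whose log2(FPKM + 1) followed Smad3 most closely over the 6 libraries were 6430590A07Rik (Pearson r = 0.999, 1.54 to 2.49 FPKM in αTC1 and 0.32 to 0.50 in βTC6), Ier5l (r = 0.998, 2.65 to 5.26 and 0.58 to 0.75) and 1500011K16Rik (r = 0.998, 14.2 to 20.0 and 7.48 to 7.91). Each was highest in αTC1 replicate 3, as Smad3 was, and with 2 separated lines the r values describe that separation.

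The second question was whether chromatin around these genes was open to the same degree. ATAC-seq values are TMM-normalized read counts. The lowest value of each pure library, 0.0939 to 0.205, was taken as 1 read. No peak was empty in any of them, so an absence of reads may have been set to 1 read and cannot be told from it. Folds are on the log2(value + 1) scale (limma with an intensity trend, Benjamini-Hochberg over 65053 peaks). At FDR under 5%, 38 of the 89 peaks held more reads in βTC6 and 40 held more in αTC1, where 39.9% and 38.1% of all peaks were. With an absolute log2 fold change over 2 as well, 13 were called in βTC6 and 6 in αTC1, where 12.9% and 5.38% of all peaks were. By the study's methods a consensus peak had to be present in at least 2 samples. A peak near the floor in 1 line could thus enter through the other line alone, which favoured a difference. How many called peaks did so was not examined. Replicates 1 to 3 alone gave 37 and 38 peaks at FDR under 5% with 13 and 6 called, and replicates 4 and 5 alone gave 30 and 22, with 14 and 6 called. The called counts were less stable to other settings. They were 3 and 4 with a pseudocount of 5, 8 and 7 with quantile normalization, and 21 and 9 with edgeR on whole reads recovered from the values. The near balance hid a split by gene: Acvr2a peaks made up 31 of the 38 βTC6 peaks, and the other 9 genes together had 7 of 48 peaks on the βTC6 side and 37 on the αTC1 side. All 5 Tgfbr1, all 9 Tgfbr2 and all 4 Smad2 peaks were more open in αTC1, as were the single peaks of Acvr1b and Acvr2b. The median log2 fold change was 0.03 over the 89 peaks, -0.76 over the 48 without Acvr2a, and 0.00 over all peaks. Chromosome-wide medians were -0.16 on chromosome 2, 0.18 on 4, 0.31 on 5, -0.28 on 9, and -0.09 on both 15 and 18.

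**Figure D2:**
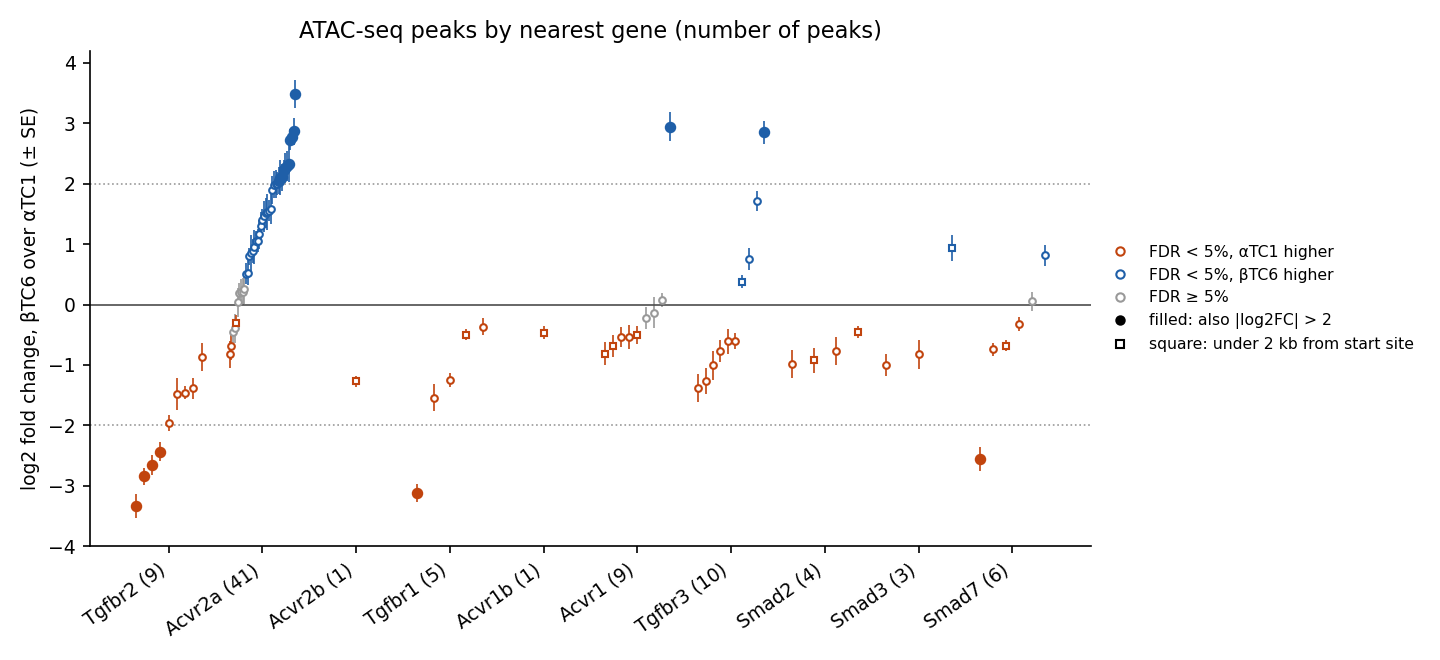
log2 fold change with its SE (vertical axis, βTC6 over αTC1, 5 libraries a line) of the 89 peaks, grouped by nearest gene and sorted within it. Acvr2a reaches 3.48, Tgfbr2 goes down to -3.34, and squares mark the 12 peaks under 2 kb from a start site, all between -1.27 and 0.94.

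Against the GENCODE vM1 annotation of mm9, 13 of the 89 peaks touched an exon of a protein-coding gene, 23 lay in introns and 53 between genes. The member was the nearest protein-coding start for 83 of them, and the other 6 were Acvr1 peaks nearer to Upp2 or Gm17409. Distances below are those deposited, from the peak to the start site, negative upstream.

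Promoters were open in both lines for 9 of the 10 genes. Acvr2b showed the clearest difference: its peak 245 bases upstream of the start (chr9:119310628-119312119) held 53.1, 50.7, 50.5, 54.3 and 54.9 normalized reads in αTC1 and 23.3, 18.9, 21.2, 22.1 and 21.2 in βTC6, a log2 change of -1.27 ± 0.09 (limma adjusted p = 1.47e-10). It was lower in βTC6 by about as much as its mRNA (-1.24). The central 200 bases of this peak, all upstream of the start, are GC-rich (81.5%) and are shown 5′ to 3′ on the plus strand (chr9:119311274-119311473) as a promoter that fell together with its transcript. Capitals would mark matches to the motifs listed further on, of which it holds none.
Acvr2b promoter: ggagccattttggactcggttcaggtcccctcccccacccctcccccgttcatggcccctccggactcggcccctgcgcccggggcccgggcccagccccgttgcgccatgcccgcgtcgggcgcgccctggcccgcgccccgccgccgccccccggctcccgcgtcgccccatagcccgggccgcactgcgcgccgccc

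Smad3 went the other way. Its promoter peak (chr9:63605620-63606279, 149 bases upstream) held 2.94, 3.23, 3.91, 2.46 and 4.04 normalized reads in αTC1 and 5.82, 9.02, 9.86, 6.85 and 5.35 in βTC6. Every βTC6 library was above every αTC1 library, so the promoter was more open by 0.94 ± 0.22 (limma adjusted p = 0.000544) in the line with 6.08-fold less mRNA. With ATAC-seq replicates 4 and 5 alone the change was 0.76 (limma adjusted p = 0.131). These values rest on 18 to 28 reads in αTC1 and 41 to 73 in βTC6 and are low beside other promoters, such as Smad2 (51.8 ± 2.28 in αTC1, SD, n = 5). The intronic peak at 7.40 kb (chr9:63598105-63598704) moved with the mRNA, from 10.6 ± 1.47 in αTC1 to 4.82 ± 0.971 in βTC6 (-1.0 ± 0.18, limma adjusted p = 4.78e-05), and so did the peak 36 kb upstream (-0.83 ± 0.24, limma adjusted p = 0.00423). The promoter window is given on the minus strand, in the sense of the gene (chr9:63605850-63606049, GC 72.0%), and has no motif match.
Smad3 promoter: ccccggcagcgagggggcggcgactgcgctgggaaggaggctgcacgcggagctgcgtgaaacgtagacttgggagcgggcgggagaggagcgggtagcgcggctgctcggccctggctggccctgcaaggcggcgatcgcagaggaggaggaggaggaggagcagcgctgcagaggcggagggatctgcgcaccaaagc

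The remaining promoters differed by less than 1 log2 unit. Smad7 (206 bases upstream, 67.1 ± 7.33 in αTC1 and 41.2 ± 2.82 in βTC6, SD, n = 5, -0.68 ± 0.09), Tgfbr1 (70 bases downstream, 72.5 ± 8.94 and 50.9 ± 3.43, -0.50 ± 0.09) and Acvr1b (163 bases upstream, 25.8 ± 2.33 and 18.4 ± 2.1, -0.47 ± 0.11) were more open in αTC1 with no overlap between lines. So was Smad2 (312 bases upstream, 51.8 ± 2.28 and 37.9 ± 6.25, -0.45 ± 0.10), and the small Acvr1 peak at 140 bases (8.87 ± 1.26 and 5.16 ± 1.06, -0.69 ± 0.19). The larger Acvr1 peak at -556 bases, which touches exons of Acvr1 and Upp2, held 40.1 ± 8.60 and 27.8 ± 6.06. Its ranges overlapped (-0.51 ± 0.15, limma adjusted p = 0.00475). Acvr2a (26 bases downstream, 77.1 ± 13.3 and 62.5 ± 12, -0.30 ± 0.13, limma adjusted p = 0.0484) and Tgfbr3 (251 bases downstream, 24.0 ± 1.29 and 31.8 ± 4.62, 0.38 ± 0.11, limma adjusted p = 0.00360) had overlapping ranges. With quantile normalization Tgfbr1 (-0.05, limma adjusted p = 0.611) and Smad2 (-0.07, limma adjusted p = 0.535) no longer passed. Tgfbr3 was at 0.07 (limma adjusted p = 0.562) once the median of its chromosome was subtracted, and Acvr2a at -0.14 (limma adjusted p = 0.370). In 6 of the 9 genes with a tested mRNA the promoter and the mRNA had the same sign, and Tgfbr1, Smad3 and Smad7 had opposite signs, the Tgfbr1 promoter by only -0.05 with quantile normalization. The mRNA of Acvr1, Acvr2a and Tgfbr3 among the 6, and of Smad7 among the others, did not pass. Acvr1 and Acvr2a mRNA changed sign without αTC1 replicate 3, and the Acvr2a promoter did with quantile normalization. The share over all genes was not computed, so nothing is read from the 6 of 9. Of the 12 peaks under 2 kb from a member start, 10 favoured αTC1 and 2 favoured βTC6 (83.3% and 16.7%), and of all 14581 such peaks 52.3% and 23.4% were.

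Tgfbr2 was the gene without an open promoter. Its nearest peak lay 36.5 kb inside the gene, in an intron (chr9:116047832-116048180), and held 4.90, 5.34, 5.86, 5.19 and 6.07 normalized reads in αTC1 against 0.142, 0.205, 0.135, 0.428 and 0.0939 in βTC6, which is 1 to 3 reads per library. The ratio of summed reads was 25.2 (95% Clopper-Pearson interval 12 to 63.5, counting error only), and the log2 change -2.43 ± 0.16 (limma adjusted p = 5.82e-11). A value of 1 read is the floor and may stand for none, in which case the ratio is too low and the interval does not hold. The peak may also have entered the consensus set through αTC1 alone, which favours a difference. At so few reads its size depends on the pseudocount, at -3.11 with 0.5 and -1.01, no longer called, with 5, and it was -4.72 in edgeR on the recovered reads. The other 8 peaks lay 139 to 314 kb upstream between genes, and all were more open in αTC1. Of all consensus peaks farther than 100 kb from a start 23.8% were more open in αTC1, and of all peaks on chromosome 9 47.1% were. The peak at -194 kb (chr9:116277960-116278581) held 25.6, 20.9, 26.3, 26.3 and 23.3 in αTC1 and 2.56, 1.23, 2.16, 0.856 and 1.13 in βTC6, a 15.4-fold difference in means (-3.34 ± 0.20, limma adjusted p = 1.38e-11). The peak at -176 kb (chr9:116259870-116260833) held 37.4, 39.6, 46.0, 36.4 and 43.6 in αTC1 and 3.83, 4.10, 4.19, 6.99 and 5.26 in βTC6 (-2.84 ± 0.15, limma adjusted p = 1.55e-12). In both peaks every αTC1 library was high and every βTC6 library low. The peak at -201 kb (chr9:116284976-116285811) fell from 32.7 ± 3.41 in αTC1 to 4.45 ± 1.33 in βTC6 (-2.66 ± 0.17, limma adjusted p = 2.23e-11). The strongest of the set by level, at -214 kb, measured 57.5 ± 5.53 and 20.4 ± 2.90 (-1.46 ± 0.11), and the other 4 ran from -0.87 to -1.96. This αTC1-open stretch accompanied no Tgfbr2 transcript above the detection limit in either line. The central 200 bases of the peaks with the largest moderated t and the largest fold change are shown on the plus strand (chr9:116260252-116260451 and chr9:116278171-116278370), with a reverse-strand match to the Smad core motif CAGAC in capitals in the second.
Tgfbr2 -176 kb: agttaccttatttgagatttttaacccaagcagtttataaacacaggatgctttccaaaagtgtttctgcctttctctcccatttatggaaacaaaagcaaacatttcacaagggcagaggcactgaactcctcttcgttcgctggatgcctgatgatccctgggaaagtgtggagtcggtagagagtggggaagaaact
Tgfbr2 -194 kb: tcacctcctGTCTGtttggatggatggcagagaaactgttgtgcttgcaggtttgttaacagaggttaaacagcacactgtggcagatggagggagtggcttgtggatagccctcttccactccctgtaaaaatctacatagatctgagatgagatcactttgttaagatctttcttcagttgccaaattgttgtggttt

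Tgfbr1 had a comparable distal site, 62.1 kb upstream of its start (chr4:47303865-47304363) and inside an intron of a neighbouring gene. It held 40.1, 34.7, 40.4, 39.9 and 48.2 normalized reads in αTC1 and 3.27, 4.92, 4.46, 3.14 and 3.29 in βTC6, 10.7-fold apart in means (-3.12 ± 0.14, limma adjusted p = 3.50e-13). The mRNA was slightly higher in βTC6, so the site was most open in the line with less Tgfbr1 transcript. Its neighbour at -59.2 kb measured 45.3 ± 3.40 and 18.7 ± 3.89 (-1.25 ± 0.12). The window (chr4:47304015-47304214, plus strand) holds none of the motifs searched.
Tgfbr1 -62.1 kb: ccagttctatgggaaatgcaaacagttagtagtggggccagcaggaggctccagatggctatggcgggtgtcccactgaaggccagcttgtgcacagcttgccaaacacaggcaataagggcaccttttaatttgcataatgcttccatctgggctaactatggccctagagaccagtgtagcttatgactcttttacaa

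Acvr2a showed the opposite side of the comparison. Its start faces an upstream stretch of 1441502 bases in which vM1 places no protein-coding start and 8 starts of other gene types, and 39 of the 41 Acvr2a peaks lay there. Beyond 100 kb upstream, 30 of 38 peaks favoured βTC6 and 2 favoured αTC1, with a median log2 fold change of 1.43 and 11 called in βTC6 (28.9%). Over all 16042 consensus peaks farther than 100 kb from a start, 59.0% were more open in βTC6, 21.8% were called there and the median was 0.91, so distal peaks leaned to βTC6 in general. The number called depends on the pseudocount, since with 5 only 3 of all 89 member peaks were called in βTC6. The peak at -372 kb (chr2:48296734-48297766) held 6.30, 6.04, 8.27, 6.41 and 9.68 normalized reads in αTC1 and 56.4, 56.6, 55.5, 58.6 and 49.4 in βTC6 (2.77 ± 0.13, limma adjusted p = 2.82e-13). The peak at -415 kb (chr2:48254186-48255123) held 2.38, 1.55, 1.05, 1.5 and 0.433 in αTC1 and 27.4, 29.1, 25.8, 28.1 and 15.5 in βTC6, 18.2-fold apart in means (3.48 ± 0.23, limma adjusted p = 6.38e-11). Both were well separated, with βTC6 replicate 5 the lowest of its line in each. The peaks at -390 kb (2.87 ± 0.22), -205 kb (2.73 ± 0.18) and -149 kb (2.22 ± 0.18) were also among the 11, of which the farthest lay at -1441 kb (2.1). Neither the Acvr2a mRNA (-0.12) nor its promoter (-0.30) was higher in βTC6, and the peak nearest to the gene on its upstream side, at -65.5 kb, held 1.01 ± 0.693 and 4.92 ± 2.14. The windows at -372 kb (chr2:48297151-48297350, with 1 CAGAC in capitals) and -415 kb (chr2:48254555-48254754, no match) are shown on the plus strand.
Acvr2a -372 kb: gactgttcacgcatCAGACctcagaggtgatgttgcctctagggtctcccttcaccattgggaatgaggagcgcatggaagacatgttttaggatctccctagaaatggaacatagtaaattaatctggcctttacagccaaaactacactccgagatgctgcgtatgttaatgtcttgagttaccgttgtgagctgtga
Acvr2a -415 kb: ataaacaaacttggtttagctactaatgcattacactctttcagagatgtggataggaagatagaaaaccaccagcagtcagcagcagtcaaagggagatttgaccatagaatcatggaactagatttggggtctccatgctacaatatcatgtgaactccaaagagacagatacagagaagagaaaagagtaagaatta

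**Figure D3:**
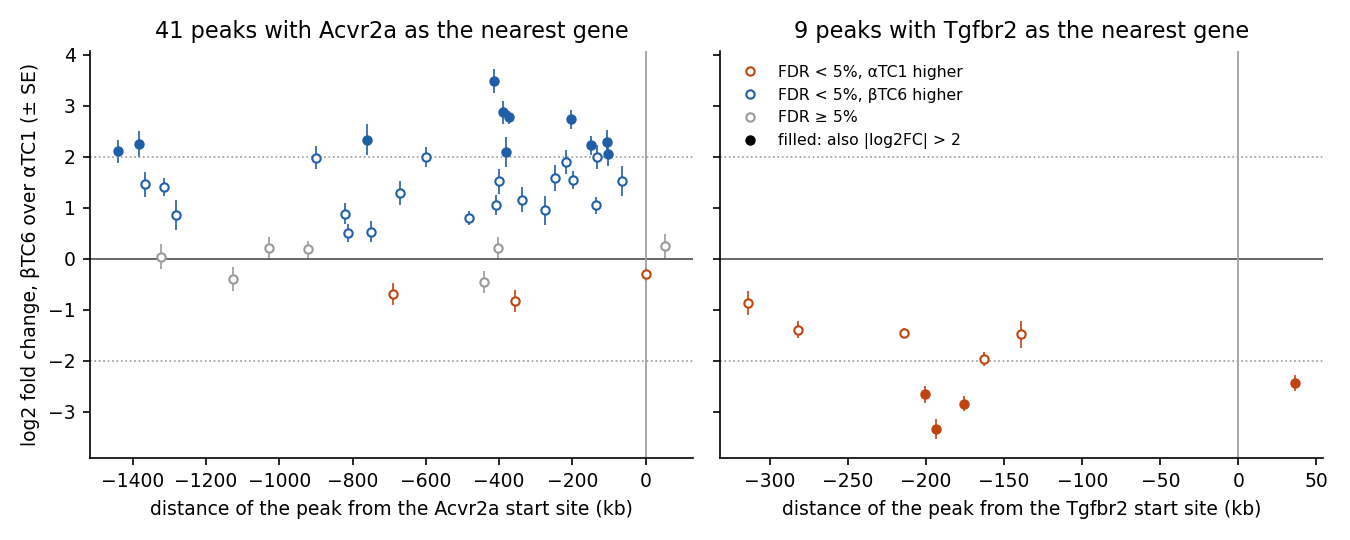
log2 fold change with its SE (vertical axis, βTC6 over αTC1) against distance from the start site in kb (horizontal axis, negative upstream) for the Acvr2a and Tgfbr2 peaks. Points above 0 fill the upstream stretch of Acvr2a, with 11 past 2, while all 9 Tgfbr2 points lie below 0.

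Single sites inside introns or exons separated the lines at genes whose mRNA did not pass the test. At Tgfbr3, the intronic peak at 93.5 kb (chr5:107624699-107625469) held 6.30, 3.79, 2.55, 2.87 and 6.21 normalized reads in αTC1 and 34.7, 37.5, 35.3, 35 and 36.3 in βTC6 (2.85 ± 0.18, limma adjusted p = 3.73e-11). The other 9 Tgfbr3 peaks ran from -1.38 to 1.71, with 6 more open in αTC1. The Tgfbr3 window (chr5:107624985-107625184, plus strand) holds 1 match to the forkhead motif TGTTTAC, in capitals.
Tgfbr3 93.5 kb: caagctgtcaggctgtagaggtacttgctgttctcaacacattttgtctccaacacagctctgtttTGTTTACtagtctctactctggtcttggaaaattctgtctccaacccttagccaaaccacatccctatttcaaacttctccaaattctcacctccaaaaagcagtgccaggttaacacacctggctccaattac

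At Acvr1, the peak at 66.4 kb (chr2:58352580-58353152), which overlaps an exon of the gene, held 0.14, 1.26, 1.2, 0.955 and 0.144 in αTC1, or 1 to 9 reads, and 14.1, 14.2, 11.5, 10.3 and 9.67 in βTC6 (2.94 ± 0.24, limma adjusted p = 1.38e-09). The protein-coding start nearest to this peak was that of Gm17409, not of Acvr1. The most open Acvr1 peak, at 34.3 kb, measured 46.8 ± 9.05 and 49.0 ± 5.32 (0.08 ± 0.11, limma adjusted p = 0.547).

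At Smad7, the intergenic peak 38.3 kb past the start (chr18:75565044-75565614) held 18.6, 14.6, 12.2, 19.2 and 14.4 in αTC1 and 1.85, 1.44, 2.70, 1.71 and 1.60 in βTC6 (-2.55 ± 0.20, limma adjusted p = 5.69e-10), against a Smad7 mRNA that was, if anything, higher in βTC6. A peak at 8.32 kb leaned the other way (8.38 ± 1.86 and 15.5 ± 3.54, 0.82).

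Short motifs were looked up, on both strands, in the 200 bases around the centre of every peak. CAGAC (Smad core) was present in 28 of the 89 member windows (31.5%) and in 37.4% of all consensus peaks, TGANTCA (AP-1) in 16 (18%) and 10.6%, TGTTTAC (forkhead) in 8 (8.99%) and 6.31%, TAATTA (homeodomain) in 6 (6.74%) and 6.93%, and CAGCTG (E-box) in 18 (20.2%) and 17.2%. The palindrome GTCTAGAC, the optimal Smad site, was in 1 member window, the promoter peak of Smad7, and in 97 of all 65053 windows (0.149%). Smad7 is a classical direct target of Smad complexes, and these letters describe its promoter sequence in mm9, not binding in these cells. Of the 6 peaks called in αTC1, 3 held CAGAC and 3 CAGCTG, and of the 13 called in βTC6, 4 and 2 did.

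The mixtures, which took no part in the comparison of pure lines, asked whether these sites track the share of αTC1 cells. Only peaks called between the pure lines were tested, and the mixtures were made from these same lines. A trend of the known sign was therefore built in, so the tests below describe its regularity and are no separate support for the calls. All 6 αTC1-open called peaks rose and all 13 βTC6-open called peaks fell with the αTC1 percentage over the 9 mixtures (1 library each). Pearson r ranged from 0.672 to 0.989 in size, and each of the 19 passed an exact two-sided permutation test after Benjamini-Hochberg adjustment over the 19 (adjusted p from 0.000105 to 0.0440). By Spearman's rho 18 of 19 passed. Tgfbr3 at 93.5 kb was the most regular, at 33.8, 27.7, 25.2, 19.9, 19.4, 17.0, 11.6, 8.51 and 7.11 normalized reads from 10% to 90% αTC1 cells (r = -0.989, rho = -1, exact permutation p = 5.51e-06 for both, the smallest possible; r = -0.986 without the 10% and 90% mixtures). Every step of added αTC1 cells lowered it. Tgfbr2 at -176 kb went from 9.95 to 40.2 normalized reads over the same range (r = 0.981, exact permutation p = 2.76e-05, rho = 0.983, exact permutation p = 4.96e-05; r = 0.963 without the 10% and 90% mixtures). Tgfbr1 at -62.1 kb (r = 0.935, rho = 0.95), Acvr1 at 66.4 kb (r = -0.930, rho = -0.95) and Smad7 at 38.3 kb (r = 0.921, rho = 0.95) followed the same rule, with r of 0.914, -0.920 and 0.878 when both end mixtures were left out. Among the 11 called Acvr2a peaks r ran from -0.672 to -0.967. The weakest was the one at -1441 kb (rho = -0.667, exact permutation p = 0.0589), whose relation rested on the end mixtures (r = -0.506, exact permutation p = 0.251 without them). The Tgfbr2 intronic peak did not pass without them either (r = 0.840 to 0.692, exact permutation p = 0.0790).

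**Figure D4:**
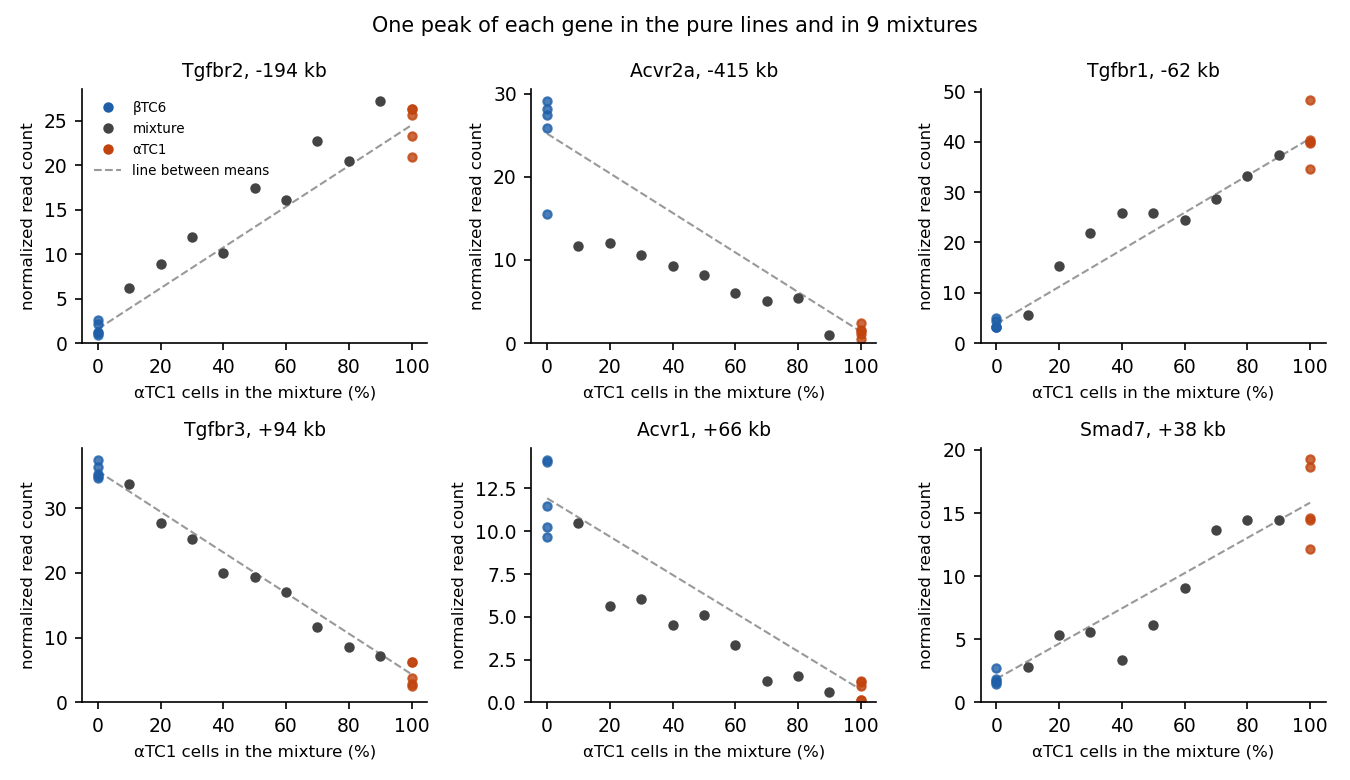
Normalized read count (vertical axis) of the called peak with the largest fold change of each of 6 genes against the percentage of αTC1 cells (horizontal axis), in 5 βTC6 libraries (blue, 0%), 9 mixtures (dark) and 5 αTC1 libraries (orange, 100%), with a dashed line between the means of the pure lines. All 9 mixtures lie under the line at Acvr2a -415 kb and 8 of 9 above it at Tgfbr2 -194 kb.

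Set against a straight line between the means of the pure lines, the mixtures fell on the αTC1 side more often than on the βTC6 side. For the 6 αTC1-open peaks 37 of 54 values were above the line, and for the 13 βTC6-open peaks 82 of 117 were on or under it. Acvr2a at -415 kb had all 9 mixtures under the line, at 11.7 normalized reads with 10% αTC1 cells, where βTC6 replicate 5 measured 15.5 and the other βTC6 libraries 25.8 to 29.1. Not every peak did so: the βTC6-open Acvr2a peaks at -762, -381 and -102 kb each had 7 of 9 mixtures above the line. The values of 1 mixture share a library and are not independent, and no test was made of this count.

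The wider family was described by lists of 84 further genes, of which 46 were tested, 16 were higher in βTC6 and 17 lower at FDR under 5%, with a median log2 fold change of 0.16. Of the 46, 14 passed the FPKM filter through 1 line only, so that the filter itself favoured a difference, and 17 of the 84 had no library above 3 counts in either line. With the genes at 0 in one line set to their lower bound the median stayed at 0.16. There were 6 called higher and 2 lower, where 10.2% and 4.08% of all tested genes were called and 38.7% and 36.0% passed. All 8 called genes passed the filter only through the line in which they are high, so these calls are no support for a direction of the lists, and their adjusted p-values carry the same limit. With no FPKM filter, which tests more genes, 17 were called higher and 6 lower. With ERCC scaling the 17 lower at FDR under 5% became 7.

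**Figure D5:**
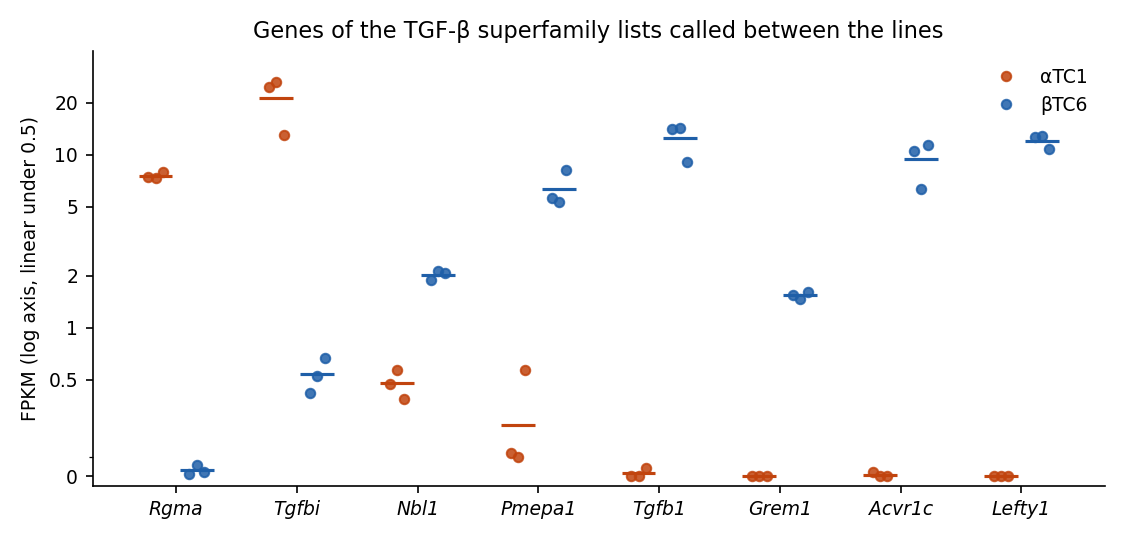
FPKM (vertical axis, logarithmic and linear under 0.5) of the 8 called genes of the family lists in 3 αTC1 (orange) and 3 βTC6 (blue) libraries, with bars at the means. Rgma and Tgfbi are the 2 that were lower in βTC6, and Grem1 and Lefty1 are at 0 in every αTC1 library.

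Of 6 other receptors 3 were tested. Acvr1c (ALK7), the type I receptor for nodal and activin B, neighbours Acvr1 on chromosome 2 and read 0.02, 0 and 0 FPKM in αTC1 and 10.59, 6.36 and 11.38 FPKM in βTC6. From 2 counts in all αTC1 libraries the ratio of summed counts was 2130 (95% Clopper-Pearson interval 589 to 17595, counting error only; edgeR adjusted p = 5.91e-08). Both counts lay in replicate 1, without which the fitted log2 change went from 10.87 to 13.58. Bmpr1a was higher in βTC6 (0.85 ± 0.11) and Bmpr2, the BMP type II receptor, lower (-1.70 ± 0.14, 11.11, 11.43 and 12.64 against 4.31, 2.92 and 3.16 FPKM). Of 3 tested co-receptors, Rgma, which binds BMPs, was at 7.42, 7.33 and 8.0 FPKM in αTC1 and 0.01, 0.06 and 0.02 in βTC6 (-7.82 ± 0.28, edgeR adjusted p = 3.40e-08, and -8.60 without βTC6 replicate 2), the pseudoreceptor Bambi was higher (0.81 ± 0.10) and Rgmb did not pass. Of 4 tested other Smads, the shared partner Smad4 (-0.89 ± 0.08, 35.1 ± 1.88 against 18.2 ± 0.973 FPKM, SD, n = 3), Smad5 (-0.50 ± 0.07) and Smad9 (-1.06 ± 0.11) were lower and Smad1 (0.70 ± 0.11) higher.

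Of 28 ligands, 7 were tested, 6 of them through 1 line only. Tgfb1, the ligand of the Tgfbr2 and Tgfbr1 complex, read 0, 0 and 0.04 FPKM in αTC1 and 14.08, 14.33 and 9.12 FPKM in βTC6, a count ratio of 937 (95% Clopper-Pearson interval 259 to 7746, counting error only; edgeR adjusted p = 1.79e-07). The 2 αTC1 counts lay in replicate 3, without which the fitted log2 change went from 9.68 to 12.35. Lefty1, a secreted nodal antagonist, was at 0 in every αTC1 library and at 12.66, 12.78 and 10.85 FPKM in βTC6, at least 118-fold higher against 3 counts per library (edgeR adjusted p = 4.40e-07). Thus a line with TGF-β1 transcript carried no detectable transcript of its type II receptor. Tgfb2 (1.88 ± 0.21), Tgfb3 (1.64 ± 0.20), Inha (1.78 ± 0.26) and Gdf11 (0.86 ± 0.17) were also higher in βTC6, and Bmp2 was lower (-1.74 ± 0.25).

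Of 13 ligand-binding inhibitors and latency proteins 8 were tested, 2 being higher, 3 lower and 3 not past the threshold. The BMP antagonist Grem1 was at 0 in every αTC1 library and at 1.54, 1.47 and 1.61 FPKM in βTC6, at least 50.9-fold higher against 3 counts per library (edgeR adjusted p = 1.45e-06). Nbl1, another BMP antagonist, rose by 2.09 ± 0.22 (1.99, under the limit of 2, without αTC1 replicate 3), whereas the follistatin-like gene Fstl1 (-1.56 ± 0.19) and the latent TGF-β binding proteins Ltbp1 (-0.68 ± 0.25) and Ltbp3 (-0.90 ± 0.18) were lower. All 13 intracellular regulators were tested, with 2 higher, 6 lower and 5 not past the threshold. Pmepa1, a membrane protein that keeps receptor Smads from the receptor, read 0.12, 0.10 and 0.57 FPKM in αTC1 and 5.63, 5.33 and 8.19 FPKM in βTC6 (4.66 ± 0.33, edgeR adjusted p = 2.07e-06), highest within αTC1 in replicate 3, without which the log2 change was 5.31. The Smad7 partner Strap (-0.89 ± 0.09) and the type I receptor binding protein Fkbp1a (-0.38 ± 0.08) were lower.

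Of 13 genes listed as targets of the pathway 8 were tested, 2 higher, 2 lower and 4 not past the threshold, so the list had no common direction. Tgfbi, a matrix protein named for its induction by TGF-β, measured 24.55, 26.24 and 12.95 FPKM in αTC1 and 0.43, 0.53 and 0.67 in βTC6 (-5.23 ± 0.32, edgeR adjusted p = 7.36e-07), here with αTC1 replicate 3 the lowest of its line. Bhlhe40 (-1.99 ± 0.32) was lower, and Junb (1.82 ± 0.34) and the BMP target Id3 (1.5 ± 0.19) were higher. Id1 measured 52.1 FPKM on average in αTC1 and 53.8 in βTC6 (edgeR adjusted p = 0.677).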

How the data were processed

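RNA-seq and ATAC-seq libraries of αTC1, βTC6 and their mixtures were analysed from the tables deposited by the authors, on mm9 throughout. For RNA-seq, the authors trimmed reads with Trim Galore 0.40 and used RSEM 1.2.12 on Bowtie 2 alignments, depositing expected counts (raw) and FPKM per gene. For ATAC-seq, per the labels and the study's methods, reads were trimmed (Trimmomatic 0.32), aligned (BWA 0.7.9a) and freed of duplicates (Picard 1.95), peaks were called per library (MACS2 2.1.0), and DiffBind 2.2.5 counted reads in consensus peaks, deposited by the authors as TMM-normalized read counts (a signal, not raw counts). TMM assumes that most peaks do not differ, so a global difference in opening would be scaled away. Columns giving the authors' own peak classes were not used, and 0 columns of sample values were left unmatched.

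Expected counts were rounded and tested with edgeR 4.0.16 (quasi-likelihood, TMM) in R 4.3.3, after removing the 92 ERCC spike-ins, over the genes with at least 1 FPKM in all libraries of either line. Spike-ins took 0.436% to 0.971% of expected counts. Peaks were tested with limma 3.58.1 (trend) on log2(normalized read count + 1). Passed means FDR under 5% (Benjamini-Hochberg), and called also requires an absolute log2 fold change over 2. In all 10 pure ATAC-seq libraries 100% of values were whole multiples, within 0.01 of a read, of the value of 1 read, the lowest of each library. Whole reads could thus be recovered, with 1 as the floor. Tested with edgeR as an alternative, they gave 21 member peaks called in βTC6 and 9 in αTC1. Mixtures were tested by exact permutation in Python 3.11.15 (SciPy 1.17.1). All 10 genes, every called gene of the family lists, each gene's nearest peak and up to 5 called peaks a gene by moderated t were named by rule. Other genes and peaks given as examples were chosen after their values were seen. The genes and lists were chosen with earlier results of these data known. Scripts were tested on simulated data. Alternatives covered normalization (RLE, ERCC, quantile, chromosome median), filters, pseudocounts of 0.5 and 5, DESeq2 1.42.0, a replicate block, subsets of replicates and peaks within 100 kb of a start site. Intervals and floors cover counting error only. Peak starts are printed as deposited. Sequences were read from the mm9 genome, and places from GENCODE vM1.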

Additional observations from a re-analysis of the deposited data

Results flagged for a closer look

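Of 44 groups of 5 libraries tested at the named peaks for 1 value far from the others, 3 held one, and about 1 in 20 such groups is flagged by chance. In the Acvr2a promoter peak, αTC1 replicate 5 held 53.3 normalized reads and the other 4 libraries 81.8 to 84.7. In the Acvr2a peak at -415 kb, βTC6 replicate 5 held 15.5 and the others 25.8 to 29.1. In the Smad7 promoter peak, βTC6 replicate 5 held 46.2 and the others 39.4 to 40.8. Each of the 3 values belonged to a replicate numbered 5, which differed from replicates 1 to 3 in both lines more than these did from each other. Their cause was not tested.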

How the results depend on the processing

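The values rest on 3 RNA-seq and 5 ATAC-seq libraries a line, 1 clone each, and weakly covered peaks are limited by depth. Among single-gene and single-peak values under the alternatives, 90 member mRNA values kept direction and side of the FDR threshold, 11 ceased and 4 began to pass it and 3 reversed, while named peaks gave 398, 18, 0 and 1, and all 96 values of the called family genes kept theirs, Nbl1 falling to 1.99, under the log2 limit, without αTC1 replicate 3. The reversed values were Acvr1 mRNA (0.031 without αTC1 replicate 3 and 0.030 without βTC6 replicate 2, -0.077 to 0.031 over all libraries left out), Acvr2a mRNA (0.030 without αTC1 replicate 3, -0.29 to 0.030) and the Acvr2a promoter peak (0.17 with quantile normalization), none past the threshold. Of the 10 genes, 1 was higher in βTC6, against 2 with DESeq2 or RLE, 0 with ERCC scaling and 1 to 2 on leaving out a library (2 without αTC1 replicate 3 or βTC6 replicate 2). The count lower was 4, against 2 with ERCC scaling and 3 to 4 on leaving out a library. ERCC scaling passed 3566 of all genes against 9102. In the family lists 16 higher became 27 with no FPKM filter (16 to 22 without a library), 17 lower became 7 with ERCC scaling (15 to 17), 6 called higher became 17 with no filter (6 to 7) and 2 called lower became 6 (2 to 3). Of the 89 peaks, 38 more open in βTC6 became 23 with a mean of at least 5 normalized reads, which moved the median of all peaks by -0.19, and 7 within 100 kb (37 to 38 without a library). The 40 more open in αTC1 became 22 with replicates 4 and 5 only (37 to 42). The 13 called in βTC6 became 21 with edgeR, 2 within 100 kb, 3 with a pseudocount of 5 and 8 with quantile normalization (12 to 16), and the 6 called in αTC1 became 9 with edgeR and 3 within 100 kb (6 to 7). The cause of these shifts was not tested, except that filters and the distance limit leave fewer features. Replicate numbers did not pair the libraries (correlation of deviations -0.0358 to 0.0690). With the replicate number as a block, 1 member was higher and 3 lower (Smad2 no longer passed, edgeR adjusted p = 0.0650), the family counts stayed at 16 and 17, 38 peaks favoured βTC6 and 42 favoured αTC1, and 13 and 6 were called. All 19 called peaks passed over the mixtures, and 17 to 19 did under the alternatives.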
